A study of Mus musculus with 6 samples.

Results

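The genes described here encode tubulin isotypes, the closely related versions of the alpha and beta tubulin proteins. They are the 4 alpha genes Tuba1a, Tuba1b, Tuba1c and Tuba4a and the 6 beta genes Tubb2a, Tubb2b, Tubb3, Tubb4b, Tubb5 and Tubb6. These 10 genes were picked by symbol from the 55536 genes in the count tables. The cells were CAD cells, a single mouse line of the central nervous system from a male C57BL/6 x DBA/2 background, transformed with simian virus 40. Undifferentiated CAD cells proliferated in medium with 8% serum. The differentiated cells were kept for 5 days with 100 µM dexamethasone, a synthetic glucocorticoid, in medium with 1% serum. Steroid, lower serum and time therefore differed together between the groups and cannot be told apart. Each group had 3 mRNA libraries. The labels name no separate cultures for them, so the p-values cover only the spread of these libraries, part of which may be technical.

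Alpha and beta tubulin bind each other as a heterodimer, and the heterodimers assemble head to tail into microtubules. Isotypes differ mostly in the acidic tail at the end of the protein, where enzymes add or remove tyrosine and chains of glutamate. Tuba1a, Tubb2a, Tubb2b and Tubb3 are isotypes known for high expression in neurons, whereas Tuba1b, Tubb4b, Tubb5 and Tubb6 are made in many dividing cell types. Cells also tune tubulin mRNA by autoregulation, in which excess free tubulin leads to decay of tubulin mRNAs on translating ribosomes.

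The last 60 coding bases of Tuba1c, Tuba4a and Tuba8 are shown because the final codon decides whether an isotype is made with a terminal tyrosine. Capitals mark the last codon before the stop. The sequences come from GENCODE M21 transcripts, with positions on GRCm38, and each is written 5′ to 3′ on the strand of the gene.
Tuba1c, chr15:99037950-99038009, plus strand: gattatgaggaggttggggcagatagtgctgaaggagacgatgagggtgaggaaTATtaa
Tuba4a, chr1:75215622-75215681, minus strand: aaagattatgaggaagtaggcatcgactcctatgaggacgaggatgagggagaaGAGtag
Tuba8, chr6:121226020-121226079, plus strand: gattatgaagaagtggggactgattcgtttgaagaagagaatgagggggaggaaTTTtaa
Tuba1c ends in a tyrosine codon. Tuba4a ends in a glutamate codon, so its protein is made without the terminal tyrosine. Tuba8, a further alpha tubulin described with the remaining tubulin genes, ends in a phenylalanine codon.

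The last 60 coding bases of the beta genes are shown for their glutamate codons, as glutamate is the residue to which glutamate chains are attached. Which of these residues carry chains was not tested. Here capitals mark every in-frame glutamate codon, and positions and strands follow the same convention.
Tubb2a, chr13:34074468-34074527, minus strand: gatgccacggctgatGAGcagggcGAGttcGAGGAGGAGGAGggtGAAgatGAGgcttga
Tubb2b, chr13:34127471-34127530, minus strand: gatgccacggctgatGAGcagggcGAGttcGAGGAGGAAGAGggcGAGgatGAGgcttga
Tubb3, chr8:123421623-123421682, plus strand: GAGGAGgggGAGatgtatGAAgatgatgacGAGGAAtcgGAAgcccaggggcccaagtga
Tubb4b, chr2:25222308-25222367, minus strand: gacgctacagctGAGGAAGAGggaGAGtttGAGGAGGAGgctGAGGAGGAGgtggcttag
Tubb5, chr17:35834982-35835041, minus strand: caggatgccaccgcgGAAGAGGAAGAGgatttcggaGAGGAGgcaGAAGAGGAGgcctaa
Of the 19 codons before the stop, 10 were glutamate codons in Tubb4b, 9 in Tubb5, 8 in each of Tubb2a and Tubb2b, and 7 in Tubb3. The stretch has a fixed length and need not hold the whole tail. That of Tubb3 opens on glutamate codons, and codons before it were not counted. The counts therefore do not rank the tails.

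The counted reads summed to between 6411105 and 8757992 per library. Of the 12664 genes tested, 40.3% were called higher in differentiated cells and 38.6% lower, 78.9% in all. A gene was called if its p from the edgeR quasi-likelihood fit, adjusted by Benjamini and Hochberg's method, was under 0.05. With so large a background, a share of called genes near these values is not a result about the tubulins. Proliferation genes set the scale of the difference between the groups. All 9 tested genes of a list of 10 fell, with a median log2 fold change of -4.60, and their summed level was 3383 to 3545 CPM (reads scaled to library size) in undifferentiated libraries and 137.6 to 159.7 CPM in differentiated ones. Mki67, a marker of cycling cells, had 618 ± 22.0 CPM (SD, n = 3) and 21.3 ± 2.74 CPM (SD, n = 3). The part of this shift in the tubulin results was not tested. In bulk RNA, fewer cells of a type and less RNA per cell cannot be told apart.

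Of the catecholaminergic markers against which the label of the line was checked, 9 of 12 were tested, of which 4 rose and 4 fell. Th, the rate-limiting enzyme of catecholamine synthesis, was low, at 4.60 ± 0.674 CPM in undifferentiated and 9.52 ± 1.05 CPM in differentiated cells (SD, n = 3 each). Dbh, which converts dopamine to noradrenaline, fell from 165 ± 3.07 to 12.5 ± 0.354 CPM (SD, n = 3 each). The dopamine and noradrenaline transporter genes Slc6a3 and Slc6a2 had 0 reads in every library. Summed over each list, markers of other cell types reached at most 20.3 CPM for fibroblasts (6 genes), 1.64 CPM for astrocytes (5 genes), 4.25 CPM for oligodendrocytes (5 genes) and 35.7 CPM for microglia and endothelium (6 genes). The fibroblast sum was 10.1 to 13.7 CPM in undifferentiated and 18.3 to 20.3 CPM in differentiated libraries, mostly Dcn, and the microglia and endothelium sum was 18.3 to 21.3 and 33.3 to 35.7 CPM, mostly Pecam1. The defining markers Col3a1, Mog, Sox10, Olig2, Cx3cr1 and Ptprc had 0 reads in every library.

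All 10 isotype genes had enough reads to be tested. In differentiated cells 3 rose (Tuba4a, Tubb2a and Tubb2b), 6 fell (Tuba1b, Tuba1c, Tubb3, Tubb4b, Tubb5 and Tubb6) and Tuba1a was not called. The median log2 fold change was -0.60 over the 10 genes and 0.017 over all genes tested. For the 9 called genes the libraries of the groups did not overlap, which over all genes tested held for 41% above and 38.9% below. The isotypes together took 4661 to 4875 CPM in undifferentiated libraries and 2693 to 2803 CPM in differentiated ones.

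**Figure D1:**
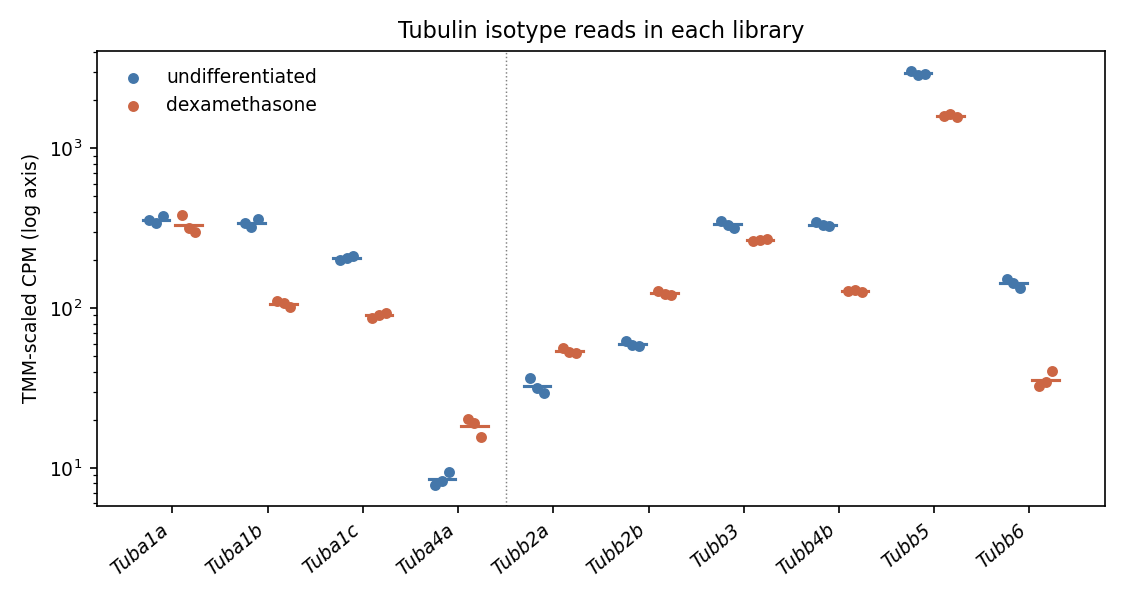
Reads of the 10 isotype genes in each library, in TMM-scaled CPM on a log axis, with a point for each library and a line at the group mean. Blue marks undifferentiated and orange dexamethasone libraries, and the dotted line parts alpha from beta genes. Tuba1a is the gene whose groups overlap, Tubb6 and Tuba1b lie farthest below their undifferentiated level, and Tuba4a, Tubb2a and Tubb2b lie above it.

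Among the alpha genes, Tuba1b and Tuba1c fell, Tuba4a rose and Tuba1a was not called. Tuba1a (ENSMUSG00000072235, chr15:98949837-98953703, minus strand) is the alpha isotype mutated in many human brain malformations with smooth cortex. It had 354, 341 and 375 CPM in undifferentiated replicates 1, 2 and 3 and 382, 315 and 301 CPM in differentiated replicates 1, 2 and 3. Differentiated replicate 1 was above every undifferentiated library and the other differentiated libraries were below them all, so the groups overlapped. The log2 fold change was -0.10 ± 0.06 (SE), with a 95% interval from -0.23 to 0.04 and an edgeR adjusted p of 0.1675. Without dexamethasone replicate 1 the value was -0.21 and was called (edgeR adjusted p = 0.0003631). The sign depended on the scaling, with 0.0044 under upper quartile factors and 0.028 under library totals alone, neither of them called. These scalings also moved the median over all genes from 0.017 to 0.12 and 0.14, a shift that applies to every fold change given here.

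Tuba1b (ENSMUSG00000023004, chr15:98931425-98934565, minus strand) is the alpha isotype of most dividing cells. Its level was 340.3, 323 and 359 CPM in undifferentiated and 111, 108 and 101 CPM in differentiated replicates 1, 2 and 3. Every differentiated library was far below every undifferentiated one, a 3.19-fold fall (log2 fold change -1.67 ± 0.06 SE, edgeR adjusted p = 3.054e-20). Tuba1c (ENSMUSG00000043091, chr15:99029891-99038110, plus strand), a further member of the same gene cluster, had 199.8, 207 and 211 CPM and then 86.3, 91.1 and 92.6 CPM. Tuba1c fell 2.29-fold (log2 fold change -1.19 ± 0.05 SE, edgeR adjusted p = 3.389e-17). The groups of both genes were far apart relative to their spread, in contrast to those of Tuba1a, which lies between them on chromosome 15.

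Tuba4a (ENSMUSG00000026202, chr1:75214228-75219865, minus strand), the alpha isotype without the encoded tyrosine, was the lowest member per kilobase of exon in both groups. It had 7.77, 8.28 and 9.42 CPM in undifferentiated and 20.2, 19.0 and 15.5 CPM in differentiated replicates 1, 2 and 3. All differentiated libraries were higher, a 2.17-fold rise (log2 fold change 1.12 ± 0.14 SE, edgeR adjusted p = 5.297e-08). These values rest on 55 to 65 reads per undifferentiated library and 104 to 182 reads per differentiated library. The gene shares 37.3% of its exon bases with Stk16 on the opposite strand, and the reads were counted by strand.

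Among the beta genes, Tubb2a and Tubb2b rose and Tubb3, Tubb4b, Tubb5 and Tubb6 fell. Tubb5 (ENSMUSG00000001525, chr17:35833921-35838306, minus strand), the beta isotype of proliferating cells and neural progenitors, had the highest level per kilobase of exon of all members. It had 3027, 2887 and 2911 CPM in undifferentiated and 1596, 1635 and 1574 CPM in differentiated replicates 1, 2 and 3. Tubb5 fell 1.84-fold (log2 fold change -0.88 ± 0.05 SE, edgeR adjusted p = 6.332e-16). The drop of the group mean from 2942 ± 74.9 to 1602 ± 30.7 CPM (SD, n = 3 each) makes up most of the drop of the isotype sum.

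Tubb4b (ENSMUSG00000036752, chr2:25222160-25224702, minus strand), a widely expressed isotype also found in cilia, had 346, 329 and 325 CPM in undifferentiated and 127, 131 and 127 CPM in differentiated replicates. It fell 2.60-fold (log2 fold change -1.38 ± 0.05 SE, edgeR adjusted p = 3.43e-19). Tubb6 (ENSMUSG00000001473), an isotype whose expression is low in the nervous system, had 152, 144 and 133 CPM and then 32.3, 34.4 and 40.2 CPM. Its fall of 4.04-fold was the largest change of the 10 genes in the edgeR fit (log2 fold change -2.01 ± 0.07 SE, adjusted p = 2.42e-19).

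Tubb3 (ENSMUSG00000062380, chr8:123411424-123422015, plus strand), the isotype widely used as a marker of neurons, did not follow the neuronal pair Tubb2a and Tubb2b. It had 349.8, 332 and 319 CPM in undifferentiated and 264, 266 and 270.1 CPM in differentiated replicates 1, 2 and 3. All differentiated libraries were lower, and the log2 fold change was -0.32 ± 0.05 (SE, edgeR adjusted p = 1.468e-06), the smallest among the called members. Over all alternatives run it lay between -0.36 and -0.20 and stayed called.

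Tubb2b (ENSMUSG00000045136, chr13:34126748-34130466, minus strand), an isotype of postmitotic and migrating neurons, had 62.2, 58.5 and 57.6 CPM in undifferentiated and 128, 123 and 121 CPM in differentiated replicates. It rose 2.09-fold (log2 fold change 1.06 ± 0.06 SE, edgeR adjusted p = 5.744e-15). Its neighbour Tubb2a (ENSMUSG00000058672, chr13:34074274-34078007, minus strand) had 36.7, 31.6 and 29.2 CPM and then 55.9, 52.9 and 52.0 CPM. Tubb2a rose 1.65-fold (log2 fold change 0.72 ± 0.08 SE, edgeR adjusted p = 1.151e-08). In both genes every differentiated library was above every undifferentiated one.

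**Figure D2:**
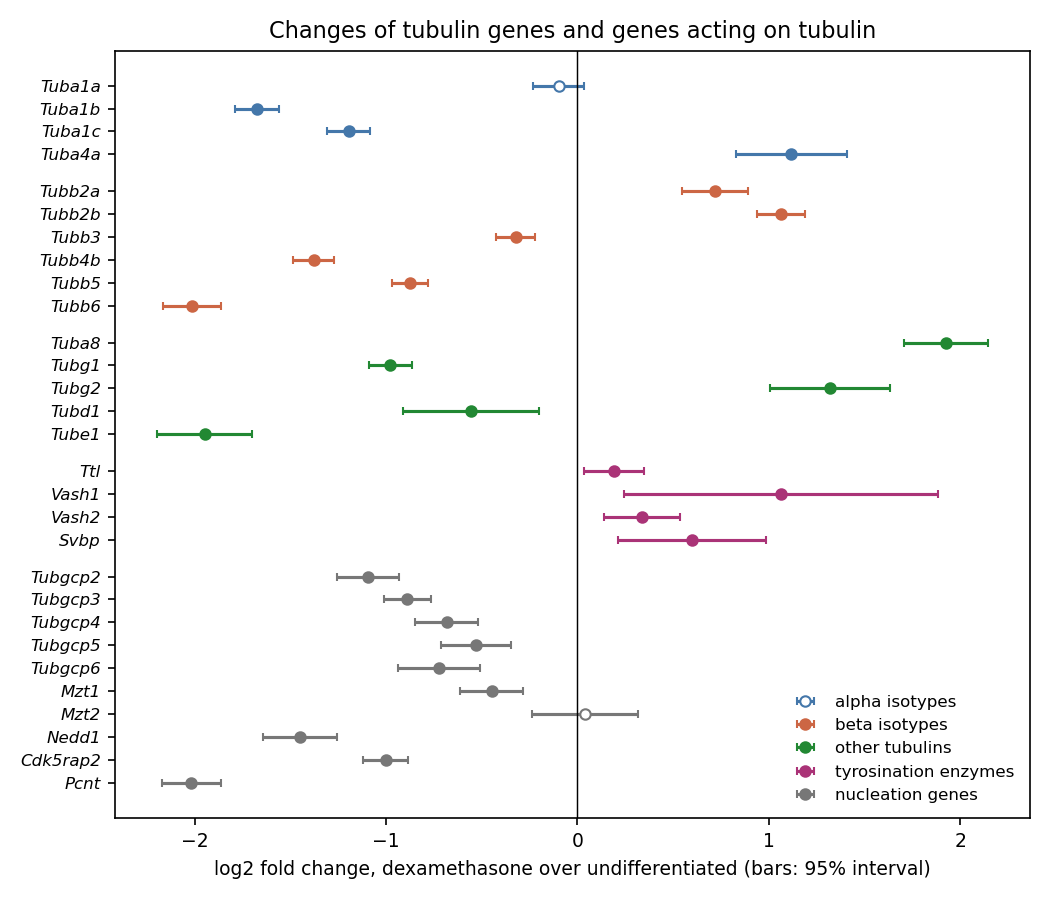
Log2 fold change of dexamethasone over undifferentiated libraries for tubulin genes and 2 lists of genes that act on tubulin, with bars for the 95% interval of the edgeR fit. Filled points were called at an adjusted p under 0.05 and open points were not. The isotypes run from -2.01 (Tubb6) to 1.12 (Tuba4a), and 9 of the 10 nucleation genes lie below 0.

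Near-identical copies affect what was counted. The authors counted no read that aligned to several places and none that overlapped several genes, so reads from stretches shared by paralogs or pseudogenes were lost. The coding sequences of Tuba1a and Tuba1b were 98.3% identical, those of Tuba1a and Tuba1c 97.1% and those of Tuba1b and Tuba1c 97.9%, while Tuba4a was at 84.7% to 85.2% with these genes. Tubb2a and Tubb2b were 96.5% identical, and the other pairs of beta genes were between 80.2% and 85.9%. Of the 1282 windows of 75 bases, the read length, in the Tuba1a coding sequence, 501 were the same in Tuba1b and Tuba1c. A read of 75 bases from such a window could not be assigned to any of the 3 genes.

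Tubb2a and Tubb2b differed at 47 of 1338 coding bases, and 618 of the 1264 coding windows of Tubb2a were the same in Tubb2b. The window with the most differences, which starts at coding base 64 of each, holds 11 of them, shown in capitals, and reads from it can be told apart.
Tubb2a, chr13:34076577-34076651, minus strand: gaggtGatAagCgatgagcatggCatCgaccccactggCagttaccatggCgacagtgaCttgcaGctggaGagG
Tubb2b, chr13:34129274-34129348, minus strand: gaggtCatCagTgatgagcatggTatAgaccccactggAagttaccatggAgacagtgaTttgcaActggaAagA

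A window was called countable if it occurred in no annotated transcript of another gene and lay in no overlapping gene of the same strand. All windows of Tuba4a, Tubb3, Tubb5 and Tubb6 were countable. The share was 67.8% for Tubb2b, 62.2% for Tubb4b, 56.8% for Tubb2a, 43.3% for Tuba1c, 25.3% for Tuba1a and 21.7% for Tuba1b. Within the coding sequence alone it was 12.6% for Tuba1a and 6.4% for Tuba1b, so few reads of full length from the coding sequence of these genes could be assigned. A further loss for this pair came from Gm49450, a gene model on the same strand that covers 26.2% of the exon bases of Tuba1a and 22.7% of those of Tuba1b and had 0 reads in every library. The windows of Tubb4b that were not countable mostly matched the pseudogenes Tubb4b-ps1 and Tubb4b-ps2, which had 31 and 69 reads over the 3 undifferentiated libraries and 7 and 20 reads over the differentiated ones. The calls were the same with the reads of these pseudogenes added to Tubb4b and those of Tubb2a-ps2 added to Tubb2a. The added reads were few beside those of the genes, as Tubb4b had 7033 reads over the undifferentiated libraries. Reads of pseudogenes that match Tuba1a, Tuba1b and Tuba1c were not added. The check does not cover reads lost because they aligned to several places, since these were never counted.

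**Figure D3:**
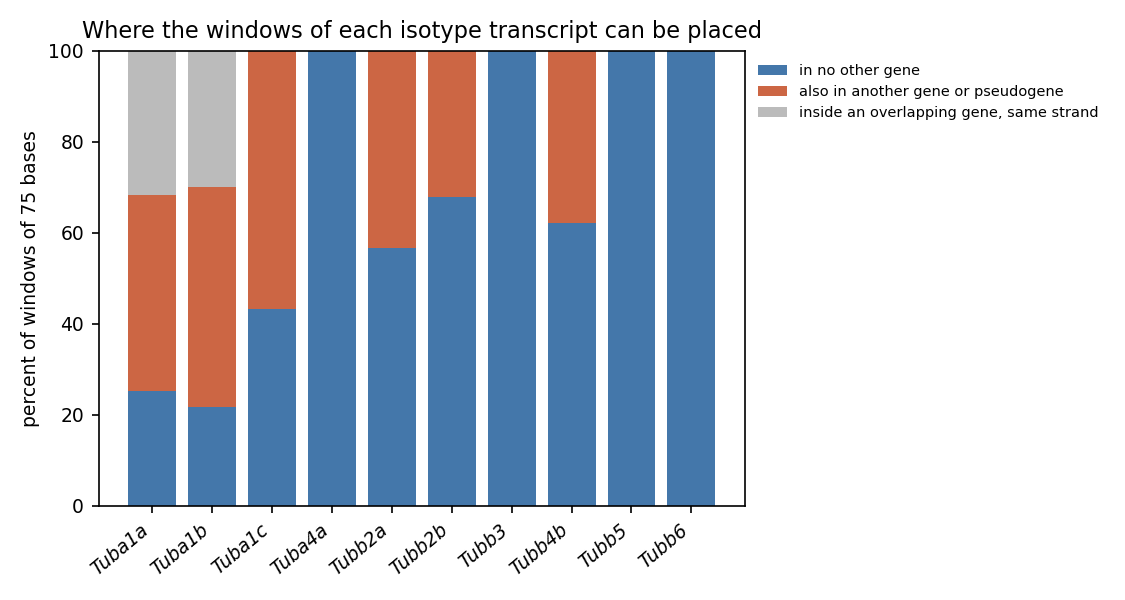
Percent of the 75-base windows of each isotype transcript that occur in no other annotated gene (blue), also occur in another gene or pseudogene (orange) or lie inside an overlapping gene on the same strand (grey). Tuba1a and Tuba1b have 25.3% and 21.7% countable windows, and Tuba4a, Tubb3, Tubb5 and Tubb6 have all of theirs.

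The reads assigned to near-identical copies were also summed within each library. Reads lost to shared stretches stay lost in these sums. The copies enter unequally, as 43.3% of the windows of Tuba1c were countable, 25.3% of those of Tuba1a and 21.7% of those of Tuba1b. The sums therefore still depend on the split between copies. Tuba1a, Tuba1b and Tuba1c together had 903 ± 38.2 CPM in undifferentiated and 529 ± 44.2 CPM in differentiated libraries (SD, n = 3 each), a log2 fold change of -0.77 ± 0.05 (SE). Tubb2a and Tubb2b together had 92.0 ± 6.25 and 178 ± 5.96 CPM (SD, n = 3 each), a log2 fold change of 0.95 ± 0.06 (SE).

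Levels of different genes were compared as CPM per kilobase of annotated exon. In undifferentiated cells Tubb5 led with 884 ± 22.5 CPM per kilobase (SD, n = 3), followed by Tuba1a, Tuba1b, Tubb3, Tubb4b, Tuba1c, Tubb6, Tubb2b, Tubb2a and Tuba4a, the last at 2.29 CPM per kilobase. The ranges of the libraries overlapped between Tuba1a and Tuba1b and between Tuba1b and Tubb3, and were separate for the other neighbours. In differentiated cells the order was Tubb5 with 481 CPM per kilobase, Tuba1a with 185, Tubb3 with 143, Tubb4b with 61.4, Tuba1b with 56.8, Tubb2b with 54.1, Tuba1c with 39.4, Tubb2a with 33.3, Tubb6 with 14.6 and Tuba4a with 4.92. Here the ranges of Tuba1b and Tubb2b overlapped. Per kilobase of countable windows in place of exons the order was another one, and in differentiated cells Tuba1a, at 761 ± 99.3, stood above Tubb5, at 622 ± 11.9 CPM per kilobase (SD, n = 3 each). The windows came from a single transcript of each gene, whereas the exon length covers all its annotated transcripts. Tubb5, with all its windows countable, had 3327 exon bases and 2575 windows. The change of length therefore mixes the choice of transcript with the loss of shared reads.

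The make-up of the alpha pool, the sum of the 4 alpha members, shifted towards Tuba1a. The pool leaves out Tuba8, which had a mean of 12.3 CPM in undifferentiated and 46.5 CPM in differentiated cells. Tuba4a, which is in the pool, had 8.49 and 18.2 CPM. All alpha shares, sums and ratios given here are those of the 4 members alone. As a percent of the summed alpha level per kilobase of exon, Tuba1a made up 42.0%, 41.7% and 42.1% in undifferentiated replicates 1, 2 and 3 and 67.5%, 63.0% and 62.9% in differentiated ones. Its share was thus above the undifferentiated range in every differentiated library, although its own level was not called as changed. Tuba1b went from 38.5% ± 0.515 to 19.9% ± 1.05 of the pool (SD, n = 3 each). Tuba1c went from 19.1% ± 0.714 to 13.9% ± 1.68 (SD, n = 3 each). Tuba4a stayed a minor component, at 0.486% ± 0.0331 and 1.72% ± 0.135 (SD, n = 3 each). With countable windows as the length, the share of Tuba1a was 40.6% in undifferentiated and 64.9% in differentiated cells.

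In the beta pool Tubb5 remained the largest component per kilobase of exon, with 66.6% ± 0.611 in undifferentiated and 61.1% ± 0.495 in differentiated cells (SD, n = 3 each). Tubb3 went from 13.5% ± 0.257 to 18.1% ± 0.354 of the pool (SD, n = 3 each), so its share was higher while its level was lower. Tubb2b went from 1.95% to 6.86% and Tubb2a from 1.52% to 4.23%. Tubb4b went from 12.0% to 7.80% and Tubb6 from 4.41% to 1.86%. For each of the 10 genes the shares of the groups did not overlap. A two-sided exact permutation test gave p = 0.1 for each, the smallest value that 3 libraries against 3 allow, so no share could pass a threshold of 0.05.

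**Figure D4:**
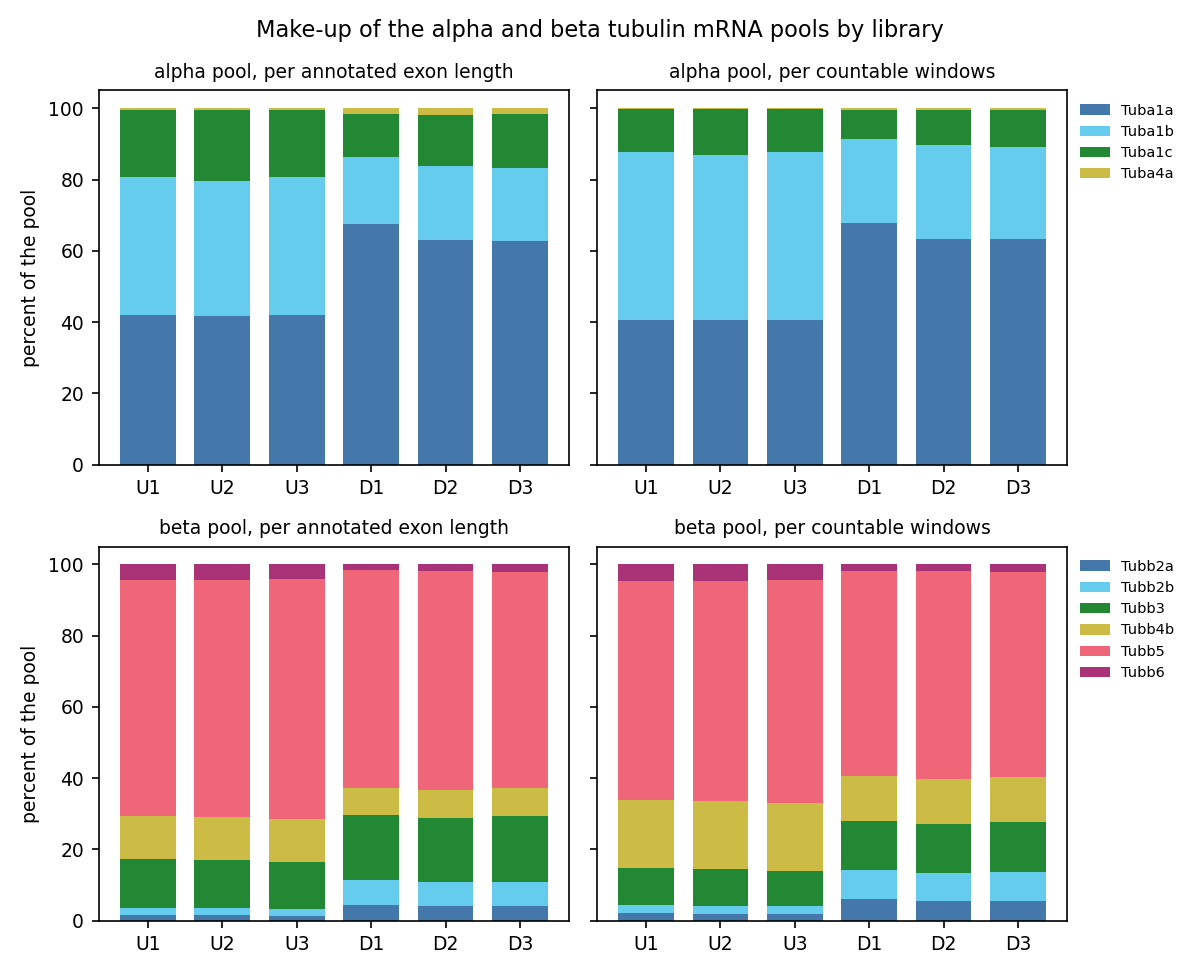
Percent of the summed level of the alpha (top) or beta (bottom) members taken by each isotype, with Tuba8 left out. Undifferentiated (U) and dexamethasone (D) libraries 1 to 3 are shown, per kilobase of annotated exon (left) or of countable windows (right). Tuba1a takes 41.7% to 42.1% of the alpha pool in undifferentiated and 62.9% to 67.5% in differentiated libraries on the left, and Tubb5 is the largest beta component in all 6 libraries on both sides.

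The alpha pool of the members, without Tuba8, and the beta pool fell by a similar factor. The alpha sum went from 472 ± 20.6 to 286 ± 25.4 CPM per kilobase of exon, 1.65-fold lower, and the beta sum from 1327 ± 41.5 to 788 ± 8.71, 1.68-fold lower (SD, n = 3 each). The ratio of alpha to beta was 0.340, 0.347 and 0.381 in undifferentiated and 0.399, 0.348 and 0.340 in differentiated replicates 1, 2 and 3, so the groups overlapped. Its size depended on the length used. Per kilobase of countable windows the ratio was 1.09 ± 0.0682 in undifferentiated and 1.09 ± 0.0986 in differentiated cells (SD, n = 3 each), a choice of length made after the data had been seen.

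Ratios of reads within a library do not depend on the scaling between libraries, and 5 pairs were compared. The ratio of Tuba1a to Tuba1b reads was 1.04, 1.06 and 1.04 in undifferentiated and 3.46, 2.91 and 2.98 in differentiated replicates 1, 2 and 3, a 2.97-fold difference of the geometric means. Tuba1c to Tuba1b was 1.40-fold higher in differentiated cells, at 0.605 ± 0.0309 and 0.847 ± 0.0692 (SD, n = 3 each). The 2 alpha genes with the most similar coding sequences thus had the largest divergence of the pairs compared. Tubb2a to Tubb2b went from 0.546 ± 0.0422 to 0.432 ± 0.00322 (SD, n = 3 each). Tubb3 to Tubb5 went from 0.113 ± 0.00319 to 0.167 ± 0.00447, and Tubb4b to Tubb5 from 0.113 ± 0.00131 to 0.0801 ± 0.000394 (SD, n = 3 each). The groups did not overlap for any pair, and the exact two-sided permutation test gave p = 0.1 for each, 0.1 after adjustment over the 5 pairs, the smallest value this design allows.

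The promoter of Tubb4b is shown because it was the only one of the 8 members' promoters searched that held the CHR motif, an element known from cell cycle genes, together with CCAAT boxes, the sites of the factor NF-Y. The window is the 250 bases before the gene start, from RefSeq on GRCm38.p6, and capitals mark matches.
Tubb4b, chr2:25224703-25224952, minus strand: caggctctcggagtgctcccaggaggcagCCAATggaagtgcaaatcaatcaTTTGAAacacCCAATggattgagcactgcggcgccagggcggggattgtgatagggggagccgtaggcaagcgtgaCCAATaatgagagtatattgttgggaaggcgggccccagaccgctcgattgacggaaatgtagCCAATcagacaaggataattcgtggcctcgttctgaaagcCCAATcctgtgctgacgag
It holds 5 CCAAT boxes and 1 CHR. No match overlapped another. Promoters of 8 members were in the table, and both strands of each were searched. The CCAAT box, with these letters, was in 5 of the 8 (Tuba1a, Tuba1c, Tubb3, Tubb4b and Tubb5), against 33.9% of 32851 promoter windows of the same length. The CHR, searched as TTTGAA, was in 1 of the 8, against 16.0% of all windows, and 5.55% of all windows held both motifs. A half-site of the glucocorticoid receptor, searched with the letters AGAACA, was in 0 of the 8 windows, against 16.1% of all. These are matches of letters and were not tested as binding sites.

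The remaining tubulin genes also split in direction. Of 10 genes on this list 5 were tested, of which Tuba8 and Tubg2 rose and Tubg1, Tubd1 and Tube1 fell. Tuba8, an alpha tubulin with a phenylalanine at its end, had 13.7, 10.6 and 12.7 CPM in undifferentiated and 43.8, 51.3 and 44.2 CPM in differentiated replicates, a 3.80-fold rise (edgeR adjusted p = 2.628e-15). Tubg1, the main gamma tubulin of the nucleating ring complex, fell from 225 ± 12.5 to 114 ± 1.77 CPM (SD, n = 3 each, edgeR adjusted p = 2.937e-15). Tubg2, its second copy, rose from 6.11 ± 0.897 to 15.3 ± 0.274 CPM (SD, n = 3 each, edgeR adjusted p = 1.045e-08). Tube1, the epsilon tubulin of centrioles, fell 3.86-fold, and Tubd1, the delta tubulin, fell 1.47-fold (edgeR adjusted p = 3.112e-14 and 0.004878). Tuba3b, Tubal3, Tubb1 and Tubb4a had 0 reads in every library, and Tuba3a had too few reads to be tested.

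Over the lists of other tubulins and of genes that act on tubulin, 55 of 70 genes were tested. Of these 18 rose, 31 fell and 6 were not called, with a median log2 fold change of -0.47. Over all genes tested 40.3% rose and 38.6% fell, and the counts of each single list are to be read beside these shares. All 10 genes of microtubule nucleation were tested, of which 9 fell and 0 rose, with a median of -0.81. Pcnt, the pericentriolar scaffold pericentrin, fell from 90.3 ± 3.87 to 22.3 ± 0.735 CPM, and Cdk5rap2, which tethers ring complexes to the centrosome, from 147 ± 4.03 to 73.4 ± 2.91 CPM (SD, n = 3 each, edgeR adjusted p = 3.164e-19 and 5.601e-15). Mzt2, a small subunit of the ring complex, was not called, at 14.3 ± 1.49 and 14.7 ± 2.16 CPM (SD, n = 3 each). Of 7 tested severing genes 6 fell and Katnal1, a katanin subunit, rose 1.76-fold. Fignl1, a fidgetin-like ATPase also known for a role in DNA repair, fell 12.6-fold, from 280 ± 8.62 to 22.1 ± 1.16 CPM (SD, n = 3 each, edgeR adjusted p = 6.444e-26). Spast, the severing enzyme spastin, fell 1.46-fold.

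Of the 13 genes that fold tubulin 3 rose, 7 fell and 3 were not called, with a median log2 fold change of -0.19. These encode prefoldin, which delivers new tubulin to the chaperonin, and the cofactors that assemble the heterodimer. Pfdn4 and Vbp1, both prefoldin subunits, fell 2.13-fold and 1.88-fold, while the prefoldin subunit Pfdn5 rose 1.24-fold. Tbcel, a cofactor-like protein that can destabilise tubulin, rose from 38.1 ± 2.75 to 63.2 ± 3.28 CPM (SD, n = 3 each, edgeR adjusted p = 1.269e-09).

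The 3 autoregulation genes were all called, as were 78.9% of all genes tested. Ttc5, which recognises the first residues of nascent tubulin, rose 1.35-fold (edgeR adjusted p = 0.0002319). Scaper, the adaptor that links Ttc5 to the deadenylase, rose from 13.7 ± 3.14 to 36.1 ± 3.51 CPM (SD, n = 3 each, edgeR adjusted p = 2.807e-11). Cnot11, the deadenylase subunit that Scaper binds, fell 1.49-fold (edgeR adjusted p = 9.442e-11). These are mRNA levels, and the decay of tubulin mRNA was not measured.

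All 4 genes of the tyrosine cycle were called higher, against 40.3% of all genes tested, with a median log2 fold change of 0.47. Ttl, the ligase that adds tyrosine, had 39.3 ± 1.51 and 44.9 ± 1.54 CPM (SD, n = 3 each), a 1.14-fold rise (edgeR adjusted p = 0.02623). Of the enzymes that remove tyrosine, Vash2 rose 1.26-fold and Vash1 2.09-fold, and their partner Svbp rose 1.51-fold (edgeR adjusted p = 0.002431, 0.01772 and 0.00527). Vash1 lay at 0.919 ± 0.419 and 1.92 ± 0.766 CPM (SD, n = 3 each), and its groups overlapped. The count of 4 fell to 2 with DESeq2, with an adjusted p under 0.01 or without undifferentiated replicate 1. Leaving out each library in turn gave 2 to 3, so no such run kept all 4.

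On the list of Ttll and Tpgs genes, which is not limited to glutamate ligases, 7 of 13 genes were tested. Of these 3 rose, 3 fell and 1 was not called. Ttll1, the catalytic subunit of the brain polyglutamylase, rose from 31.5 ± 0.862 to 53.5 ± 3.56 CPM (SD, n = 3 each, edgeR adjusted p = 1.139e-09), and Ttll11, which lengthens the chains, rose 4.49-fold from 1.66 CPM. Ttll4, which starts the chains, fell from 78.5 ± 4.14 to 29.2 ± 2.82 CPM (SD, n = 3 each, edgeR adjusted p = 2.08e-15), and Ttll5 fell 1.61-fold. Of the enzymes that trim glutamates 3 of 6 were tested. Agtpbp1, whose loss causes degeneration of Purkinje cells in mice, rose 1.46-fold (edgeR adjusted p = 1.224e-06). Agbl3 rose 1.76-fold (edgeR adjusted p = 0.007558) and Agbl5 fell 1.58-fold (edgeR adjusted p = 8.21e-06). The count of 2 higher was 1 without undifferentiated replicate 3. For acetylation, the tubulin deacetylase Sirt2 rose 1.84-fold, the deacetylase Hdac6 fell 1.33-fold, and the acetyltransferase Atat1, at 9.69 ± 1.85 and 7.84 ± 0.882 CPM (SD, n = 3 each), was not called. The count of 1 lower was 2 without undifferentiated replicate 2.

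The genes with the most similar profiles were sought for the alpha and the beta gene with the highest level per kilobase, as the smallest Euclidean distance between centred log2 CPM over the 6 libraries. For Tuba1a they were Wrn at 0.0961, Rpl27a at 0.102 and Rmnd1 at 0.111. For Tubb5 they were Polr3d at 0.0366, Pkm at 0.0454 and Ndufb6 at 0.0559. No tubulin gene was among them.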

How the data were processed

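Reads were counted per gene in 6 mRNA libraries of CAD cells, 3 undifferentiated and 3 treated with dexamethasone. Groups follow the sample titles. The deposited values are raw counts that the authors made with featureCounts 1.6.4 on exons of Ensembl release 96 by strand (setting 1), with no option to count reads with several alignments or overlapping several genes, per the file headers. Tools named in the submitters' processing notes were HISAT2 2.2.0, Subread 1.6.4, FastQC 0.11.9, Trim Galore 0.6.4 and DESeq2, with the build GRCm38.p6; their roles are not given in the sources used here. Reads were 75 bases long, per the labels' protocols.

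All 55536 identifiers matched GENCODE M21 by name, start and end. Genes passing filterByExpr in edgeR 4.0.16 (R 4.3.3; minimum count 10, minimum total 15) were scaled with TMM and tested with glmQLFit and glmQLFTest by group, with Benjamini-Hochberg adjustment over all 12664 genes. CPM values are TMM-scaled, and errors are SD or, for log2 fold changes, SE. The fit was tested on simulated data with known fold changes. The members and gene lists were chosen with earlier results of these data known.

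All 10 members, all other tubulin genes and, from each further list, up to 2 called genes per direction with the smallest adjusted p and at least 1 CPM were named; Ttl, Vash1, Atat1, Mzt2, Slc6a2, Slc6a3 and the markers of other cell types were added after their values were seen. Countable windows were sought by exact match in annotated transcripts only, so copies outside the annotation were not looked at. Some sequences are not reported here. Exact permutation tests used scipy 1.17.1 and coding alignments Biopython 1.88. Alternatives were other scalings, filters and tests (DESeq2 1.42.0, limma voom from limma 3.58.1), a stricter threshold, a replicate block, pseudogene reads added, other lengths and each library left out. Precision rests on the reads counted, between 6411105 and 8757992 per library. No library was treated as a copy of another, since pairs within a group gave a chi-square of 1.65 to 3.19 times its degrees of freedom.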

Additional observations from a re-analysis of the deposited data

How the results depend on the processing

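The 9 called isotype genes kept their direction and their call under all 18 settings, the reported one included, and Tuba1a was called under 1, without dexamethasone replicate 1. Leaving out each library in turn gave 3 members higher and 6 to 7 lower, 17 to 18 pathway genes higher and 31 lower. It gave a Tuba1a share of the alpha pool of 41.8% to 42.1% in undifferentiated and 62.9% to 65.3% in differentiated cells. Samples of the same replicate number did not deviate together (r = -0.0947, 0.0357 and -0.071), not every sample correlated best with its own number, and the number as a replicate block gave the same 3 members higher and 6 lower, with 5017 of all genes higher and 4803 lower. The length mattered more. Without a length correction the share of Tuba1a was 39.1% in undifferentiated and 60.6% in differentiated cells, and that of Tubb5 in the beta pool 76.5% and 72.5%. With countable windows of 75 bases Tuba1a had 40.6% in undifferentiated cells and Tubb5 had 62.0% and 57.8%. The ratio of alpha to beta, 0.356 and 0.363 with exon length, was 1.09 and 1.09 with windows of 75 bases and 1.25 and 1.23 with windows of 50 bases. Tuba4a, with 55 to 182 reads per library, had the largest SE of the members' log2 fold changes (0.14).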
